A study of Mus musculus with 9 samples.

Results

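RNA of mouse spleen B cells was read here for 43 genes that carry secreted and membrane proteins into the endoplasmic reticulum (ER), cut off their signal peptides, fold them, clear those that fail, and sense the load. The genes were chosen by name as known members of these 5 steps. Earlier results of these data were known by then, so the list is no independent support. All 43 were among the 55536 genes of the deposited count table and among the 12849 that also have a deposited log2 value, which are the genes tested. A second gene of the name Ddit3 has no log2 value and was not used. Its 105 exon bases all lie within the Ddit3 gene that was.

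There were 5 p52Ki libraries, titled p52ki/ki, which denotes mice homozygous for a p52 knock-in, and 4 WT libraries. All came from cells labelled spleen Pre-GC B cells, that is, B cells at a stage before the germinal centre, the structure in which B cells divide and are selected on their antibodies. The p52 protein is a DNA-binding subunit of the NF-kB family, and the series pairs it with ETS1, another transcription factor. The sources used here do not give the build of the knock-in allele, the cells in which it is active, the age of the mice, any immunisation or the sort. No label ties a library to a mouse, so the p-values measure the spread between these libraries, part of which may be technical.

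Proteins that enter the secretory pathway pass through the Sec61 channel into the ER, where chaperones and disulphide isomerases fold them and a ubiquitin ligase complex removes misfolded ones. When unfolded protein builds up, the membrane sensors IRE1, PERK and ATF6 start the unfolded protein response, which raises the transcription of chaperones, folding enzymes and degradation factors. In the B lineage this machinery grows as cells become antibody-secreting plasma cells, which depend on the IRE1 product XBP1. IRE1 acts by splicing Xbp1 mRNA, and PERK by phosphorylating a translation factor, so counts per gene show neither activity.

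Among the 43 genes, 7 were higher in p52Ki than in WT and 0 were lower (edgeR quasi-likelihood test, Benjamini-Hochberg adjusted p under 0.05 over all genes tested). They were the chaperone Hsp90b1, the disulphide isomerase Pdia4, the sensor Ern1, the signal peptidase subunit Sec11c, the cochaperone Dnajb9, the transcription factor Ddit3 and the prolyl isomerase Fkbp11. This is 16.3% of the 43, where 4.49% of all 12849 genes were called higher, 4.04% lower and 8.53% in either direction. At an unadjusted p under 0.05, 10 members were higher and 1 lower, where 10.8% of all genes were higher and 10.6% lower. DESeq2 called 9 members higher and 0 lower, where it called 7.74% of all genes higher and 13.7% in either direction. The other 36 had log2 fold changes of p52Ki over WT from -0.58 to 0.73, and for 29 of them the 95% interval, from the SE and the degrees of freedom of the edgeR test, lay within 1 log2 unit either way. The median over the 43 was 0.10, with 24 positive and 19 negative, against 0.03 over all genes tested. In 9 of the 43 (20.9%) every p52Ki library lay above every WT library, and in 0 every p52Ki library lay below, where 7.30% and 6.53% of all genes did so. Ern1 and Fkbp11 are part of both the 7 and the 9. They passed the filter on low counts only through their p52Ki libraries, so they could be tested only because they differed.

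**Figure D1:**
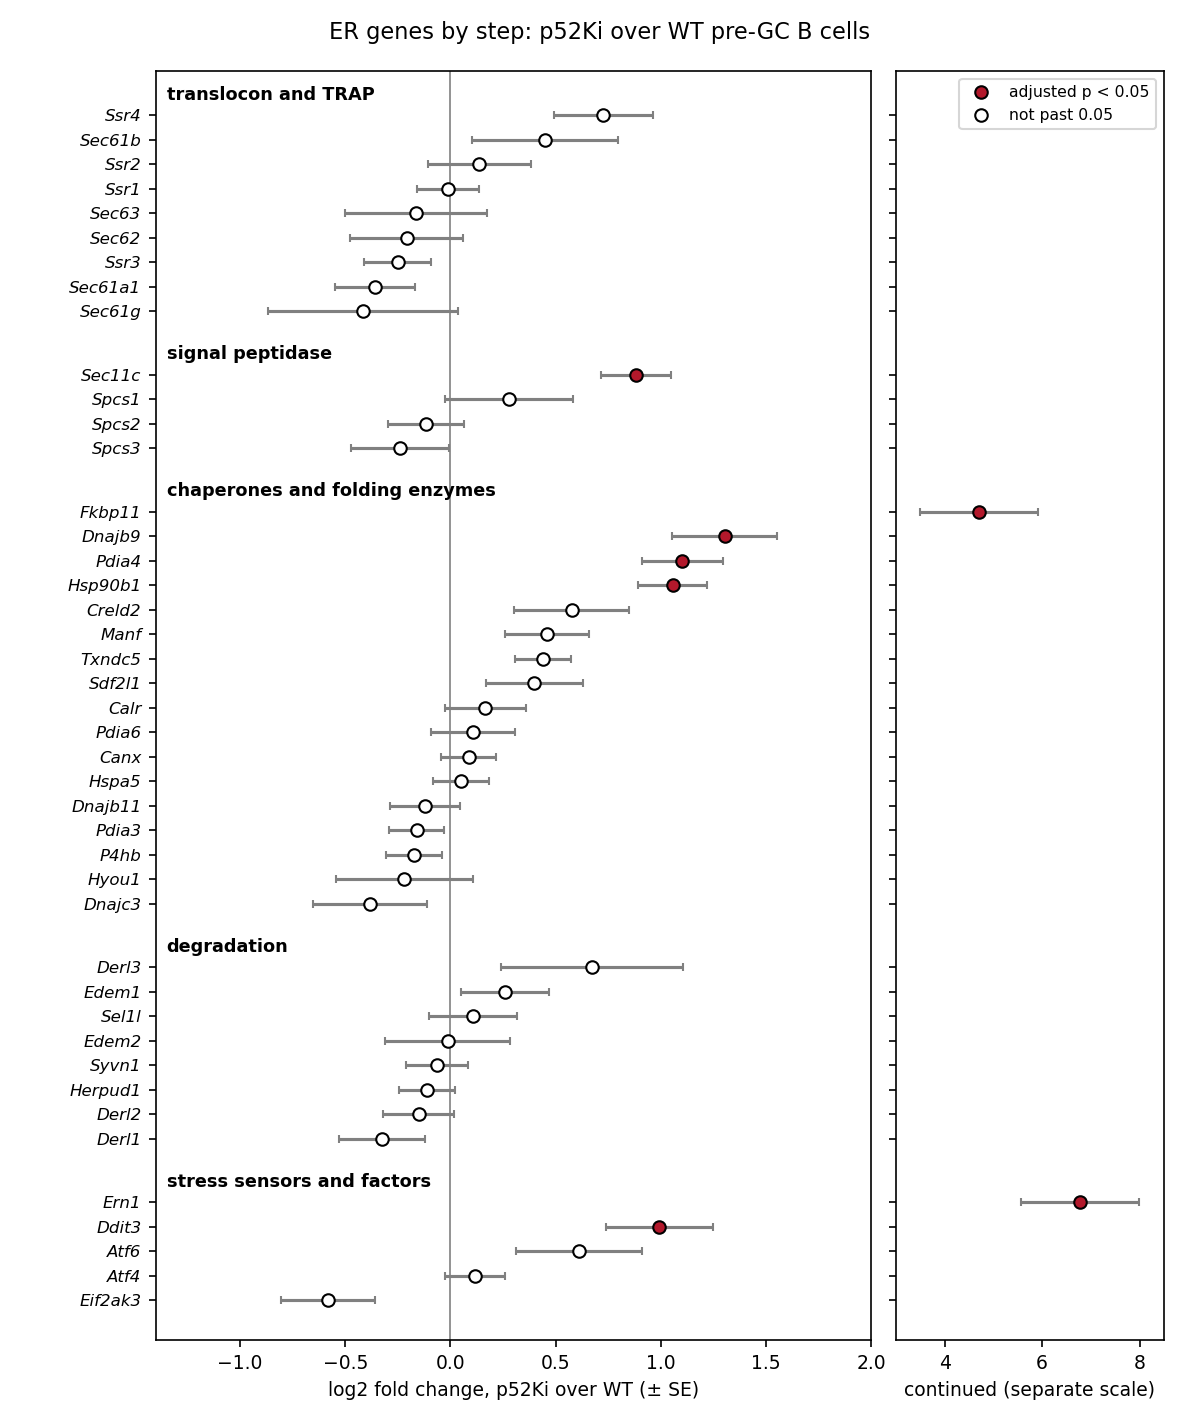
Log2 fold change of p52Ki over WT for the 43 genes, grouped by step, with bars of 1 SE from the edgeR fit (n = 5 p52Ki and 4 WT libraries). Filled points passed an adjusted p of 0.05. The right panel continues the axis on its own scale for Fkbp11 (4.71) and Ern1 (6.78), and no filled point lies below 0.

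By step, the counts were small. Of the 17 chaperones and folding enzymes 4 were called higher (23.5%), of the 4 signal peptidase genes 1, of the 5 sensors and stress factors 2, of the 9 translocon and TRAP genes 0, and of the 8 degradation genes 0 (edgeR), beside 4.49% of all genes. At that share, counts of 0 in steps of 9 and 8 genes do not set these steps apart. Fkbp11 is among the 4 chaperones and folding enzymes, and Ern1 among the 2 sensors and factors. Since these genes could be tested only because they differed, the shares of those 2 steps are not like the share of all genes. At an unadjusted p under 0.05 the translocon and TRAP genes gave 1 higher and the degradation genes 0, and DESeq2 also called 1 and 0. The median log2 fold changes were -0.16 for the translocon and TRAP genes, 0.08 for signal peptidase, 0.17 for chaperones and folding enzymes, -0.04 for degradation and 0.61 for the sensors and factors. No test of the difference between steps was made.

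At entry into the ER no gene passed. Of the Sec61 channel, the pore subunit Sec61a1 averaged 278 ± 66.0 CPM (read counts scaled to library size, mean and SD, n = 5) in p52Ki and 356 ± 69.1 CPM in WT (n = 4), with a log2 fold change of -0.36 ± 0.19 (SE, edgeR adjusted p = 0.311). The small subunits Sec61b and Sec61g stood at 33 ± 16.8 and 13 ± 6.74 CPM in p52Ki, against 24.2 ± 2.97 and 17.4 ± 6.72 CPM in WT, and did not pass (edgeR adjusted p = 0.519 and 0.677). Sec62 and Sec63, which help proteins enter after their synthesis, had log2 fold changes of -0.21 and -0.16 (edgeR adjusted p = 0.739 and 0.856).

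The TRAP complex, encoded by Ssr1 to Ssr4, sits beside the channel and aids the entry of some signal sequences. Ssr4 (chrX:73787028-73790830 of GRCm38) was at 52.6, 82.5, 64.4, 56.1 and 87.6 CPM in p52Ki replicates 1 to 5, against 36.8, 52.3, 41.8 and 34.9 CPM in WT replicates 1 to 4. The groups did not overlap, though p52Ki replicate 1 and WT replicate 2 nearly touched, and it missed the threshold at a log2 fold change of 0.73 ± 0.23 (edgeR adjusted p = 0.0823). DESeq2 called it (adjusted p = 0.0258). Its partners Ssr1, Ssr2 and Ssr3 overlapped between genotypes, at log2 fold changes of -0.01, 0.14 and -0.25. The 9 translocon and TRAP genes summed to 887 to 1142 CPM in p52Ki and to 993 to 1132 CPM in WT.

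In the signal peptidase, which cuts the signal peptide from proteins as they enter, Sec11c differed while the accessory subunits did not pass. Sec11c, one of the catalytic subunits (chromosome 18, 65800515 to 65817684), was at 305, 267, 257, 226 and 299 CPM in p52Ki replicates 1 to 5, against 119, 125, 178 and 167 CPM in WT replicates 1 to 4. The lowest p52Ki library lay above the highest WT library. It averaged 271 ± 32.6 CPM in p52Ki and 147 ± 29.6 CPM in WT, which gave a log2 fold change of 0.88 ± 0.17 (SE, edgeR adjusted p = 0.0096). It was called in each of the 9 fits that left out 1 library.

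Spcs1, Spcs2 and Spcs3, the accessory subunits, had log2 fold changes of 0.28, -0.12 and -0.24 (edgeR adjusted p = 0.68, 0.788 and 0.633). Within each library, Sec11c over Spcs2 in CPM was 1.04, 1.04, 1.31, 1.04 and 1.37 in p52Ki, against 0.492, 0.544, 0.857 and 0.481 in WT. The ranges were apart, which restates the difference in Sec11c against a subunit that overlapped between genotypes. Sec11a, the gene of the alternative catalytic subunit and no member, averaged 118 ± 14 CPM in p52Ki and 91.4 ± 21.7 CPM in WT (log2 fold change 0.37 ± 0.19, edgeR adjusted p = 0.283).

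Of the Hsp90 and Hsp70 chaperones of the ER lumen, Hsp90b1 passed and Hspa5 did not. Hspa5 encodes BiP, the Hsp70 protein that binds unfolded chains and holds the stress sensors inactive. It was at 1482, 1751, 1368, 1249 and 1130 CPM in p52Ki replicates 1 to 5, against 1254, 1401, 1344 and 1398 CPM in WT replicates 1 to 4. The p52Ki libraries lay on both sides of the WT libraries, and the log2 fold change was 0.05 ± 0.13 with a 95% interval of -0.24 to 0.34 (edgeR adjusted p = 0.891). Per kilobase of exon it had the highest level of the 43 in both genotypes, at 330 CPM per kb in p52Ki and 319 CPM per kb in WT.

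Hsp90b1 encodes GRP94, the ER form of Hsp90, which folds a narrower set of clients that includes Toll-like receptors and integrins. Its levels were 730, 1142, 743, 779 and 899 CPM in p52Ki replicates 1 to 5, against 416, 464, 330 and 442 CPM in WT replicates 1 to 4. Every p52Ki library was well above every WT library, with replicate 2 the highest. The means of 859 ± 172 and 413 ± 58.8 CPM (SD, n = 5 and 4) gave a log2 fold change of 1.06 ± 0.16 (SE, edgeR adjusted p = 0.00414). Per kilobase of exon it reached 213 CPM per kb in p52Ki and 102 CPM per kb in WT.

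The ratio of Hsp90b1 to Hspa5 within a library, which does not depend on how libraries are scaled, was 0.493, 0.652, 0.543, 0.624 and 0.796 in p52Ki replicates 1 to 5, against 0.332, 0.331, 0.245 and 0.316 in WT replicates 1 to 4. The 2 ranges were apart. Reads on 10.3% of the exon bases of Hsp90b1 could also come from 1810014B01Rik on the other strand, since the library method keeps no strand.

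Of the cochaperones of BiP 1 passed. Dnajb9, or ERdj4, a J-protein that stimulates the ATPase of BiP (chromosome 12, 44205559 to 44210326), was at 122, 80.4, 141, 100 and 115 CPM in p52Ki replicates 1 to 5, against 27.4, 58.9, 48.6 and 46.1 CPM in WT replicates 1 to 4. The groups did not overlap, and the log2 fold change was 1.30 ± 0.25 (SE, edgeR adjusted p = 0.0102). Dnajb11 and Dnajc3, which are J-proteins of the ER lumen as well, had log2 fold changes of -0.12 ± 0.17 and -0.38 ± 0.27 and did not pass (edgeR adjusted p = 0.761 and 0.475). Hyou1, which renews the nucleotide on BiP, averaged 34.5 ± 14.2 CPM in p52Ki and 40.2 ± 6.13 CPM in WT (edgeR adjusted p = 0.78).

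The smaller stress-induced proteins Sdf2l1, Manf and Creld2 had positive log2 fold changes of 0.40 ± 0.23, 0.46 ± 0.20 and 0.58 ± 0.27, none of which passed (edgeR adjusted p = 0.352, 0.207 and 0.251). Creld2 was at 185, 233, 100, 140 and 93.2 CPM in p52Ki replicates 1 to 5, against 131, 85.1, 93.1 and 94.5 CPM in WT replicates 1 to 4. The p52Ki libraries spread over the WT range and beyond it. Calr and Canx, the lectin chaperones of glycoproteins, had log2 fold changes of 0.17 and 0.09 (edgeR adjusted p = 0.706 and 0.785).

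The disulphide isomerases form and rearrange the bonds that stabilise antibody chains. Pdia4, or ERp72 (chr6:47796141-47813430), was at 433, 408, 290, 318 and 247 CPM in p52Ki replicates 1 to 5, against 130, 156, 153 and 193 CPM in WT replicates 1 to 4. The lowest p52Ki library was above the highest WT library, and the means of 339 ± 78.9 and 158 ± 25.9 CPM (SD, n = 5 and 4) gave a log2 fold change of 1.10 ± 0.19 (SE, edgeR adjusted p = 0.0068). Per kilobase of exon it ranked 5 of the 43 in p52Ki and 14 in WT.

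P4hb, Pdia3 and Pdia6, further disulphide isomerases among the members, had log2 fold changes of -0.17, -0.16 and 0.11 (edgeR adjusted p = 0.523, 0.547 and 0.832). The ratio of Pdia4 to P4hb within a library was 1.58, 1.31, 0.877, 0.961 and 0.983 in p52Ki, against 0.408, 0.469, 0.393 and 0.624 in WT. Pdia4 thus exceeded P4hb in CPM in 2 of the 5 p52Ki libraries and in 0 of the 4 WT libraries. Txndc5, an isomerase with thioredoxin domains, was at 409, 516, 431, 445 and 451 CPM in p52Ki, against 359, 381, 283 and 305 CPM in WT. The groups did not overlap, and at 0.44 ± 0.13 in log2 it missed the threshold (edgeR adjusted p = 0.063), though it passed with DESeq2 (adjusted p = 0.0081) and with a filter of 10 CPM in at least 4 libraries (edgeR adjusted p = 0.0376).

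Fkbp11, a prolyl isomerase of the ER that is abundant in secretory cells (chr15:98724366-98728198), was close to the limit of detection. It stood at 2.61, 6, 4.84, 1.38 and 5.65 CPM in p52Ki replicates 1 to 5, against 0, 0.277, 0.284 and 0 CPM in WT replicates 1 to 4. Summed counts were 117 in p52Ki and 4 in WT. Over the summed scaled library sizes the ratio was 28.7 (exact 95% interval 10.9 to 107, which covers counting error only). The fitted log2 fold change was 4.71 ± 1.22 (SE, edgeR adjusted p = 0.034). The call ended without any 1 of WT replicates 1 to 4 (adjusted p up to 0.0854). Without p52Ki replicate 1, 2, 3 or 5 the gene had too few counts to be tested, and without p52Ki replicate 4 it was called (0.0283).

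**Figure D2:**
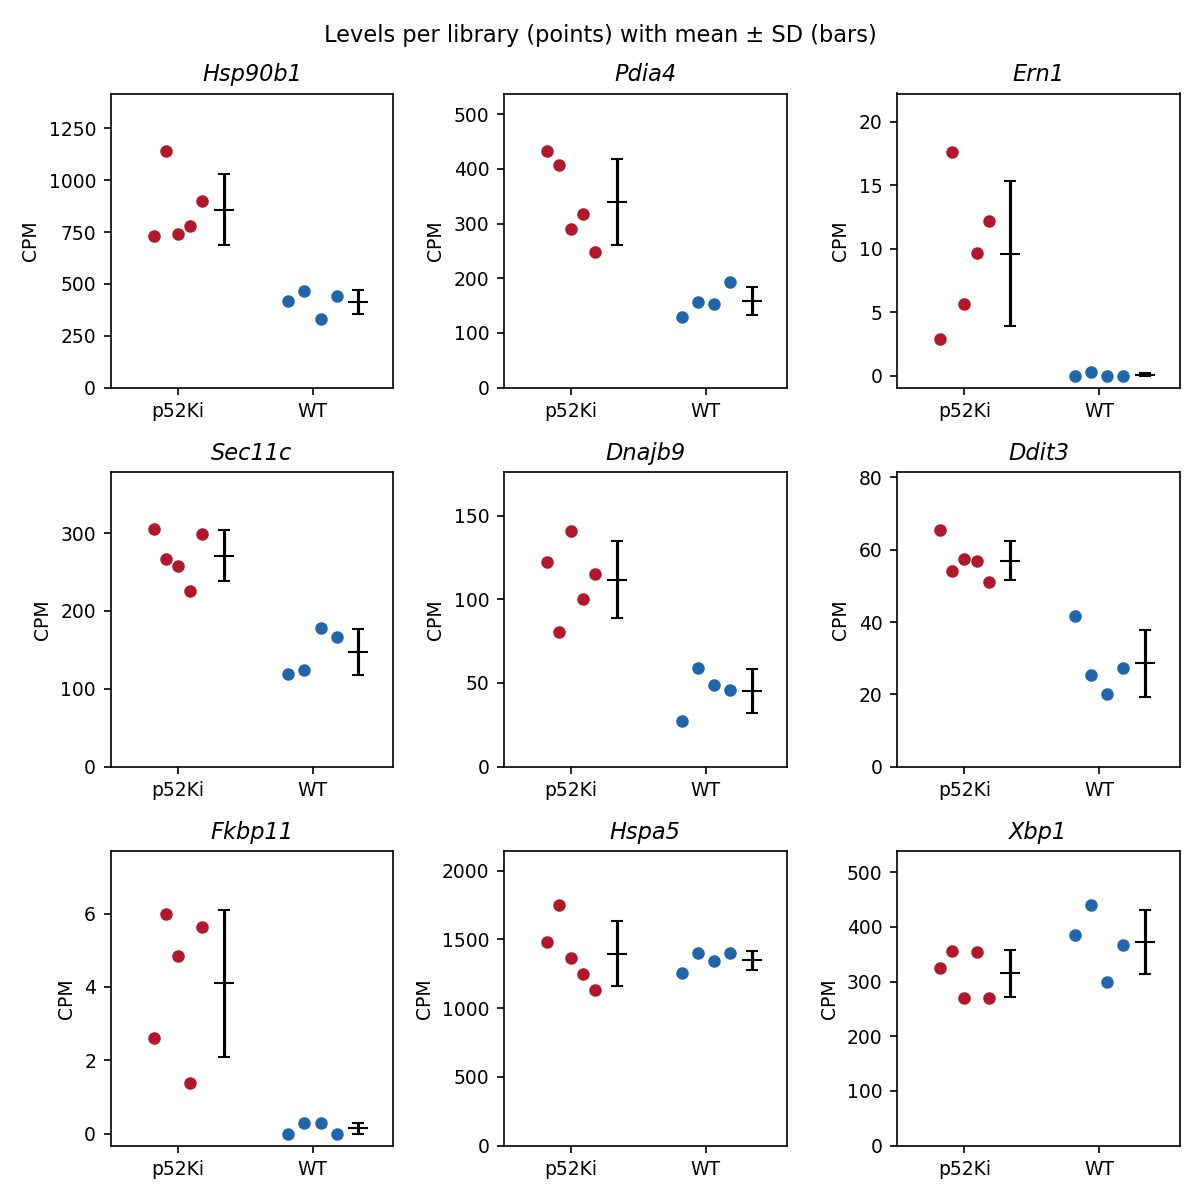
CPM of 9 genes in each library, with the mean and 1 SD beside the points (n = 5 p52Ki and 4 WT). Each panel has its own axis, which starts at 0 except for Ern1 and Fkbp11, where it starts below 0. The 7 genes called higher, from Hsp90b1 to Fkbp11, show no overlap between the genotypes, while Hspa5 and Xbp1 do overlap.

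In degradation, which pulls misfolded proteins back to the cytosol for ubiquitination, 0 of the 8 members passed in either direction (edgeR), and 0 had an unadjusted p under 0.05. Syvn1, the ubiquitin ligase HRD1, averaged 306 ± 31.7 CPM in p52Ki and 320 ± 53.8 CPM in WT, and its partner Sel1l averaged 138 ± 24.2 CPM in p52Ki and 128 ± 33.3 CPM in WT (edgeR adjusted p = 0.874 and 0.849). Herpud1, a stress-induced factor of the same complex, was at 599 ± 86.4 and 648 ± 54.4 CPM (log2 fold change -0.11 ± 0.13, edgeR adjusted p = 0.711), and its level per kilobase was among the 3 highest of the 43 in both genotypes.

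Edem1 and Edem2, which mark glycoproteins for removal by trimming mannose, had log2 fold changes of 0.26 and -0.01. Of the derlins, membrane proteins of the export channel, Derl1 and Derl2 had log2 fold changes of -0.33 and -0.15. Derl3 averaged 44.7 ± 20.4 CPM in p52Ki and 28.1 ± 14.2 CPM in WT, with the widest error of the step (0.67 ± 0.43, edgeR adjusted p = 0.42). The 8 genes summed to 1282 to 1758 CPM in p52Ki and to 1496 to 1803 CPM in WT.

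Of the 3 sensors, only Ern1 passed. Ern1 encodes IRE1 alpha (chr11:106394650-106487852) and was at 2.90, 17.6, 5.65, 9.65 and 12.2 CPM in p52Ki replicates 1 to 5, against 0, 0.277, 0 and 0 CPM in WT replicates 1 to 4. All 5 p52Ki libraries held the transcript, and in WT the only counts, 2 in number, were in replicate 2. Summed counts were 274 in p52Ki and 2 in WT. Over the summed scaled library sizes the ratio was 135 (exact 95% interval 36.9 to 1117, which covers counting error only). The fitted log2 fold change was 6.78 ± 1.22 (SE, edgeR adjusted p = 0.00751), and 8.97 without WT replicate 2. Per kilobase of exon Ern1 was still the lowest of the 43 in both genotypes, at 1.17 CPM per kb in p52Ki and 0.00846 CPM per kb in WT.

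Ern1 and Fkbp11 passed the filter on low counts only through their p52Ki libraries, so a gene at such levels could be tested only if it differed. With the filter of 10 CPM in at least 4 libraries neither was tested, and 6 of the 41 remaining members were called higher, Txndc5 among them, where 6.56% of all genes were.

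Eif2ak3, the gene of PERK, was at 50.4, 91.7, 73.3, 62.1 and 95.2 CPM in p52Ki replicates 1 to 5, against 132, 109, 83.6 and 122 CPM in WT replicates 1 to 4. Most p52Ki libraries were below WT, but replicates 2 and 5 lay above WT replicate 3, and at -0.58 ± 0.22 in log2 it missed the threshold (edgeR adjusted p = 0.147). Atf6 averaged 81.0 ± 17.9 CPM in p52Ki and 53.1 ± 23.6 CPM in WT (0.61 ± 0.30, edgeR adjusted p = 0.271). The 3 sensors therefore had log2 fold changes of different sign, with 1 of them past the threshold.

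Atf4, the transcription factor whose translation PERK favours, was at 190 ± 22.4 CPM in p52Ki and 175 ± 16.5 CPM in WT (edgeR adjusted p = 0.716). Ddit3 encodes CHOP, a factor that ATF4 induces and that promotes cell death under lasting stress (chr10:127290774-127296288). It was at 65.5, 54.1, 57.3, 56.8 and 51.1 CPM in p52Ki replicates 1 to 5, against 41.7, 25.3, 20.0 and 27.3 CPM in WT replicates 1 to 4. All p52Ki libraries were above all WT libraries, of which replicate 1 came nearest. The means of 57.0 ± 5.37 and 28.6 ± 9.28 CPM (SD, n = 5 and 4) gave a log2 fold change of 0.99 ± 0.25 (SE, edgeR adjusted p = 0.0319). The call depended on single libraries and was lost when p52Ki replicate 1, 2 or 3 or WT replicate 2, 3 or 4 was left out (adjusted p up to 0.0780) and after correction for GC content and transcript length (0.0851).

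Xbp1, the target of IRE1, is no member but completes this branch. It was at 325, 356, 270, 354 and 270 CPM in p52Ki replicates 1 to 5, against 385, 440, 299 and 367 CPM in WT replicates 1 to 4. The groups overlapped, with a log2 fold change of -0.24 ± 0.15 (edgeR adjusted p = 0.399). These counts join the spliced and unspliced forms.

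The 9 members with an ER stress element (ERSE) in the promoter are set beside their fold changes because Hsp90b1, which passed, and Hspa5, which did not, both hold it. The ERSE is the paired site for the factor NF-Y (CCAAT) and for ATF6 or XBP1 (CCACG). It was searched as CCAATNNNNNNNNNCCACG on both strands of RefSeq windows that run from 250 bases before each transcription start to 50 after (GRCm38.p6). Of the 43 members 35 had a window, and Sec11c was among those with none. The element was found in 9 of the 35 (25.7%), against 0.119% of all 32851 windows. Here and below, the shares of members count genes, which had 39 windows, while the shares of all windows count windows. They are given in the CCAAT to CCACG direction, with the fixed bases in capitals and the spacer in lower case:
Hsp90b1, distal, chr10:86705638-86705656, minus strand: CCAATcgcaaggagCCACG
Hsp90b1, proximal, chr10:86705533-86705551, plus strand: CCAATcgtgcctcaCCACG
Hspa5, chr2:34772025-34772043, plus strand: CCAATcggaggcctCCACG
Derl3, chr10:75893242-75893260, minus strand: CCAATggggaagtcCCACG
Creld2, chr15:88819520-88819538, minus strand: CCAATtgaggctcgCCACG
Calr, chr8:84847075-84847093, plus strand: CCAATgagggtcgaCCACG
Pdia6, chr12:17266491-17266509, plus strand: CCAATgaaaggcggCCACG
Canx, chr11:50325800-50325818, minus strand: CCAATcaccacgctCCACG
Syvn1, chr19:6046532-6046550, plus strand: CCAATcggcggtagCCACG
Dnajc3, chr14:118937827-118937845, plus strand: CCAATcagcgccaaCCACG

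Of these 9 genes only Hsp90b1 was called higher, and only it held 2 matches. The log2 fold changes of the 9 ran from -0.38 (Dnajc3) to 1.06 (Hsp90b1) with a median of 0.11, close to the 0.10 of all members. Of the 6 higher members with a window, 1 had the element, as had 8 of the 29 members that were not called. The part of the Hsp90b1 window that lies upstream of every annotated exon (chr10:86705510-86705694, minus strand, 185 bases) shows both matches in capitals, the proximal one as its reverse complement:
Hsp90b1: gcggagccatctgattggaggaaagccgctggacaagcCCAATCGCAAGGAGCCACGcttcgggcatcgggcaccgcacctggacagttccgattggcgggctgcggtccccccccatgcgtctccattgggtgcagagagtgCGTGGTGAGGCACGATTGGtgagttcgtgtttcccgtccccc

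**Figure D3:**
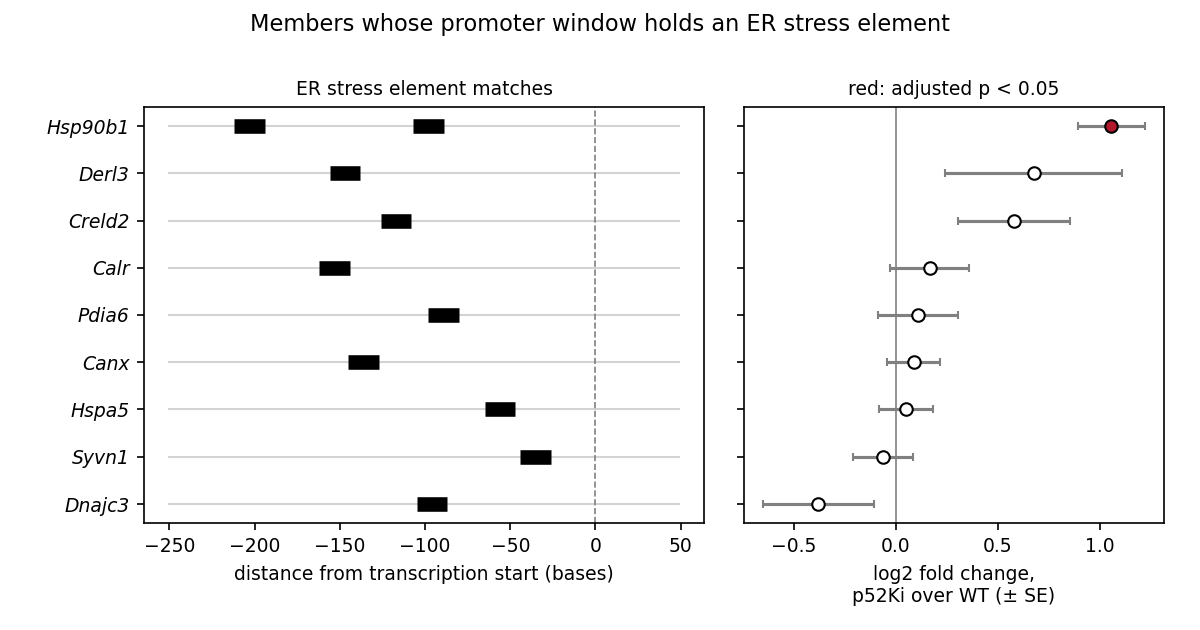
Positions of the ERSE matches from the RefSeq transcription start (left, in bases) and the log2 fold change of p52Ki over WT with 1 SE (right) for the 9 members that hold one. The matches lie between -212 and -26 bases, and the filled point marks Hsp90b1, the only one of the 9 past an adjusted p of 0.05.

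Other elements of the stress response were found in fewer members. The related element ERSE-II, ATTGG and CCACG with 1 base between them, was found in Dnajb11 and Herpud1 (5.71% of the 35 members and 0.0365% of all windows). The XBP1 core TGACGTG was found in Fkbp11, Hspa5 and Txndc5 (8.57% of the 35 and 2.01% of all windows), and TGATGCAA, bound by C/EBP and ATF proteins, in Herpud1 (2.86% of the 35 and 0.895% of all windows). CCAAT alone, which the ERSE contains and whose reverse complement begins the ERSE-II, was in 27 of the 35 members (77.1%) and in 37.4% of all windows.

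For the factors that the series names, the ETS core CCGGAAG was found in 6 of the 35 members (17.1%) and 8.86% of all windows. Its members were Ddit3, Dnajb11, Ern1, P4hb, Pdia6 and Ssr4, of which Ddit3 and Ern1 were called higher. The kappa B motif was found in Creld2, Derl3 and Edem1 (8.57% of the 35 and 4.51% of all windows), none of them called. A match is a match of letters and shows no binding. The Ern1 window upstream of annotated exons (chr11:106487853-106488046, minus strand, 194 bases) is shown because this gene was nearly absent in WT, with the ETS core in capitals:
Ern1: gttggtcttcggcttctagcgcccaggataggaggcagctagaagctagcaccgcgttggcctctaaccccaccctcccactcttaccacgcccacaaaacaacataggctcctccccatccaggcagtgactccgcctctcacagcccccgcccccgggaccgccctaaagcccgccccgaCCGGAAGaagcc

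Further genes of the same compartment gave calls at about the share of all genes. Of 58 ER genes 57 were tested, as Pdia5 had 0 counts in all libraries, and 0 were higher and 3 lower (edgeR), where 4.49% of all genes were higher and 4.04% lower. Their log2 fold changes had a median of 0.07, with 32 positive and 25 negative. At an unadjusted p under 0.05 they gave 7 higher and 6 lower, beside 10.8% and 10.6% of all genes. DESeq2 called 2 higher and 6 lower, beside 7.74% of all genes higher and 13.7% in either direction. With limma-trend and with the filter of 10 CPM in 4 libraries, 2 were called higher and 4 lower. The 3 lower genes act in folding, glycosylation and degradation.

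Erp44, which retains unassembled IgM and other thiol-linked proteins in the early secretory pathway, was at 166, 186, 215, 233 and 208 CPM in p52Ki replicates 1 to 5, against 347, 398, 331 and 350 CPM in WT replicates 1 to 4. Every p52Ki library lay below every WT library (log2 fold change -0.82 ± 0.14, edgeR adjusted p = 0.00518). Stt3b, a catalytic subunit of the oligosaccharyltransferase, averaged 109 ± 24.2 CPM in p52Ki and 213 ± 36.5 CPM in WT (-0.97 ± 0.20, edgeR adjusted p = 0.0132). Ube2j1, a ubiquitin-conjugating enzyme of ER degradation, averaged 102 ± 32.9 CPM in p52Ki and 194 ± 33.6 CPM in WT (-0.92 ± 0.25, edgeR adjusted p = 0.0434). Ube2j1 was called in only 2 of the 9 fits with 1 library left out, those without p52Ki replicate 4 or 5 (up to 0.111 in the others), and not without the filter on low counts (0.0533).

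Genes downstream of ATF4, the factor that also induces Ddit3, were read from the same fit as a further list of amino acid and stress response genes. Of 21 listed 15 were tested, of which 0 were higher and 3 lower (edgeR), with 12 of 15 log2 fold changes negative and a median of -0.25, where 4.04% of all genes were lower. At an unadjusted p under 0.05, 0 were higher and 5 lower, beside 10.8% and 10.6% of all genes. DESeq2 called 0 higher and 5 lower, beside 7.74% of all genes higher and 13.7% in either direction. Psat1, of serine synthesis, averaged 69.1 ± 22.5 CPM in p52Ki and 171 ± 43.4 CPM in WT (-1.31 ± 0.27, edgeR adjusted p = 0.0144). The tRNA synthetase genes Aars and Gars had log2 fold changes of -0.86 ± 0.21 and -0.72 ± 0.20 (edgeR adjusted p = 0.0255 and 0.0466). Aars was no longer called with p52Ki replicate 1, 3 or 5 or WT replicate 1 or 2 left out (adjusted p up to 0.0775), and Gars was called without WT replicate 3 only (up to 0.127 elsewhere). Gars also lost it with DESeq2 size factors, without the count filter and without immunoglobulin genes (0.0536, 0.0658 and 0.0524).

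Chaperones of the cytosol and mitochondria were lower in p52Ki where they passed. Of 15 tested, 0 were higher and 4 lower (edgeR), where 4.49% of all genes were higher and 4.04% lower. Of their log2 fold changes 14 of 15 were negative, with a median of -0.44. At an unadjusted p under 0.05, 0 were higher and 9 lower, where 10.8% of all genes were higher and 10.6% lower. DESeq2 called 0 higher and 7 lower, where it called 7.74% of all genes higher and 13.7% in either direction. Hspa1a, an inducible Hsp70, was at 19.3, 1.94, 20.2, 16.4 and 19.8 CPM in p52Ki replicates 1 to 5, against 262, 187, 116 and 632 CPM in WT replicates 1 to 4. All WT libraries were above all p52Ki libraries (-4.27 ± 0.60, edgeR adjusted p = 0.00266), and without WT replicate 4 the log2 fold change was -3.58. Hspa1b, its near-identical copy, had -4.16 ± 0.67 (edgeR adjusted p = 0.00456) and -3.50 without WT replicate 4, and reads may be split between the copies, so each value alone is uncertain.

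Hsph1 and Cct2 had log2 fold changes of -0.85 ± 0.22 and -0.55 ± 0.15 (edgeR adjusted p = 0.0341 and 0.0466). Each was called in only 1 of the 9 fits with 1 library left out, that without p52Ki replicate 4 for Hsph1 and that without WT replicate 2 for Cct2, at adjusted p up to 0.0861 and 0.155 elsewhere. Cct2 also lost its call in 6 of 8 other alternatives (adjusted p up to 0.0856).

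**Figure D4:**
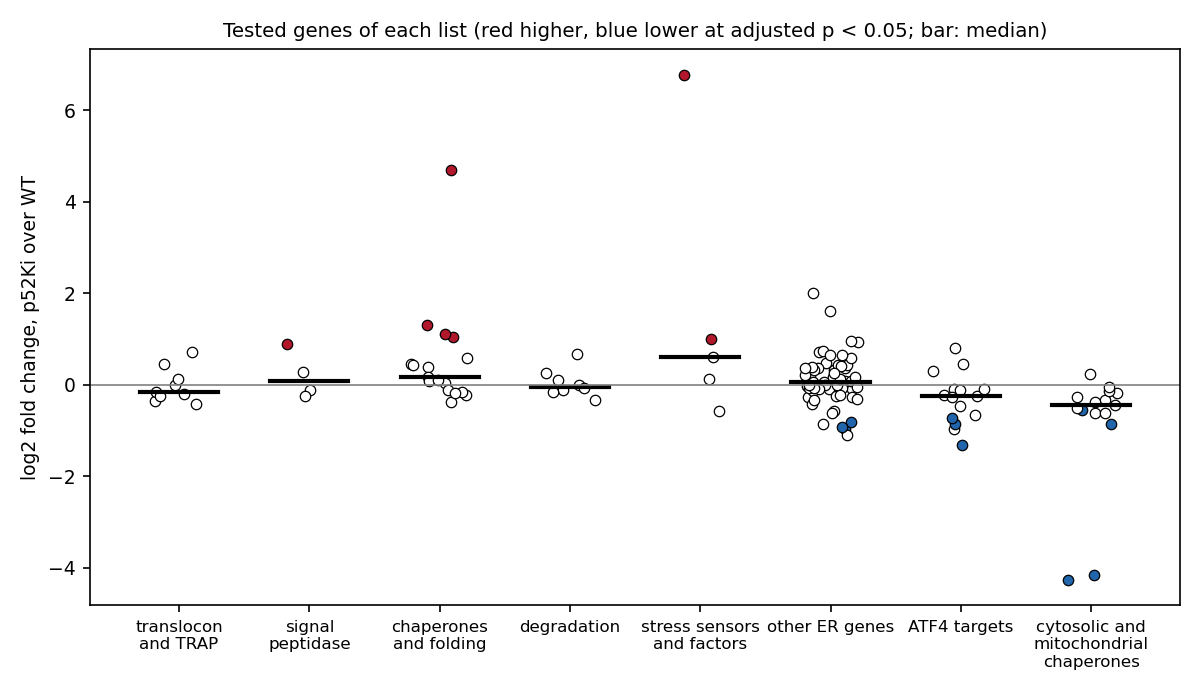
Log2 fold change of p52Ki over WT for each tested gene of the 5 steps and of the 3 further lists, with a bar at each list's median. Red points were called higher and blue points lower at an adjusted p of 0.05. Red points appear only in signal peptidase, chaperones and folding, and sensors and factors, and blue points only in the 3 further lists.

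The 43 genes together took 1.00% ± 0.0969 of all unscaled counts in p52Ki and 0.859% ± 0.0396 in WT (SD, n = 5 and 4). The ranges, 0.908% to 1.16% in p52Ki and 0.800% to 0.886% in WT, were apart. The sums by step, in scaled CPM, overlapped between the genotypes in each of the 5 steps. Chaperones and folding enzymes summed to 5877, 7527, 5719, 6081 and 5443 CPM in p52Ki replicates 1 to 5, against 5257, 5452, 4978 and 5342 CPM in WT replicates 1 to 4. p52Ki replicate 2 was far above the rest and replicate 5 lay within the WT range. Replicate 2 had the highest p52Ki value in 11 of the 17 chaperones and folding enzymes, and replicate 5 the lowest in 7. The sensors and factors summed to 412 ± 25.3 CPM in p52Ki and 368 ± 51.6 CPM in WT, and signal peptidase to 705 ± 64.5 CPM in p52Ki and 614 ± 84.5 CPM in WT.

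Several measures of the whole libraries moved with genotype. Immunoglobulin genes, the main secreted cargo of the lineage, took 3.90% ± 0.483 of counts in p52Ki (3.49% to 4.50%) and 2.55% ± 0.239 in WT (2.26% to 2.81%, exact two-sided permutation p = 0.00794, the smallest that 126 splits allow, adjusted 0.0159 over 2 measures). Total counts were 4492160 to 6647650 in p52Ki and 7368604 to 7937579 in WT (exact permutation p = 0.0159, adjusted 0.0159). Genes with at least 1 count numbered 15504 to 16634 in p52Ki and 14033 to 14793 in WT.

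The marker calls below stand beside 4.49% of all genes called higher and 4.04% lower (edgeR). The 6 B cell markers summed to 11010 to 14480 CPM in p52Ki and 9689 to 10927 CPM in WT. Of them 1 was called higher (Cd79a, log2 fold change 0.85, edgeR adjusted p = 0.00906). All 6 had positive log2 fold changes, as had 6651 of the 12849 genes tested. Of 6 germinal centre B cell markers 5 were lower, with sums of 707 to 1921 CPM in p52Ki and 2989 to 4123 CPM in WT. Of 8 plasma cell markers 7 were tested, with 1 higher (Irf4) and 2 lower (Jchain and Slamf7). The sums were 963 to 1601 CPM in p52Ki and 1804 to 2219 CPM in WT. Jchain was the largest part of these sums, with means of 562 CPM in p52Ki and 1252 CPM in WT. Slamf7 averaged 118 CPM in p52Ki and 216 CPM in WT, while Irf4 averaged 149 CPM in p52Ki and 34.6 CPM in WT. Sdc1, the plasma cell surface marker, averaged 22 ± 11.5 CPM in p52Ki and 1.21 ± 2.42 CPM in WT, apart but not called (edgeR adjusted p = 0.0762), while Prdm1, the regulator of that fate, averaged 8.18 and 7.40 CPM.

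T cell markers summed to 0 to 19.6 CPM in p52Ki and 11.1 to 15.4 CPM in WT. In WT replicates 3 and 4 all of this was Lat, at 13.9 and 15.4 CPM. Only p52Ki replicate 4 held counts of every T cell marker. Erythroid markers summed to 9.81 to 24.1 CPM in p52Ki and 6.96 to 24.1 CPM in WT. Myeloid markers summed to 55.7 to 151 CPM in p52Ki and 15.5 to 74.9 CPM in WT. Of the 8 myeloid markers 5 were tested, all with positive log2 fold changes and 0 called (edgeR), and S100a8 and S100a9 were at 0 in all libraries. Lyz2 ran from 13.0 to 65.0 CPM in p52Ki and from 3.55 to 11.7 CPM in WT, and Tyrobp from 5.65 to 13.4 CPM in p52Ki and from 0.853 to 4.73 CPM in WT. In both every p52Ki library lay above every WT library, as in 7.30% of all genes. Their edgeR unadjusted p-values were 0.00689 and 0.0427 (edgeR adjusted p = 0.0685 and 0.214). The 4 stromal and endothelial markers summed to 113 to 265 CPM in p52Ki and 39.2 to 107 CPM in WT, nearly all of it Pecam1, which B cells can also carry and which was called higher (log2 fold change 1.36, edgeR adjusted p = 0.0256). The part of any of these in the differences of the ER genes was not tested. In bulk RNA, fewer cells of a kind and less RNA per cell cannot be told apart.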

How the data were processed

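Per the labels' protocols, paired-end libraries were made from low-input RNA by the SMARTSeq v2 method with PCR and the Nextera XT kit. These steps keep neither strand nor molecular identifiers. The tools named are HISAT2 2.1.0, featureCounts (Subread 1.6.2) and SAMtools 1.8 with GRCm38, per the submitters' processing notes, which state no settings. The deposited count table is raw. The log2 CPM values that the authors deposited for 12849 genes matched edgeR's TMM-scaled log2 CPM with a prior count of 2 to within 4.97e-14.

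The counts were tested in R 4.3.3 with edgeR 4.0.16: filterByExpr, TMM factors and a robust quasi-likelihood F test of p52Ki over WT on 9 libraries with no covariate. P-values are two-sided and adjusted by Benjamini-Hochberg over 12849 genes, with 0.05 as the threshold. SE was derived as log2 fold change divided by the root of the F statistic. CPM use TMM-scaled library sizes, and per kilobase values divide by the merged exon length in GENCODE M21, which also gave positions. Intervals on summed counts are exact binomial, and cover counting error only. The script was tested on simulated data.

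The members, lists and markers were chosen with earlier results of these data known, so none is independent support. Named were all 43 members, Xbp1, and up to 6 called genes of smallest p from each further list. Genes from the marker lists, Sec11a and Pdia5 were named after their values were seen. Alternatives were DESeq2 size factors, no count filter, 10 CPM in 4 libraries, a replicate block, leaving out immunoglobulin and T cell receptor genes, each library left out, DESeq2 1.42.0, limma-voom and limma-trend (limma 3.58.1), and a correction for GC content and length.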

Additional observations from a re-analysis of the deposited data

Results flagged for a closer look

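Of 112 groups of libraries checked, over 54 named genes and 2 measures per library, 9 held a library far from the others of its genotype, where chance flags about 1 in 20. In p52Ki, replicate 5 was high for Sec61b (62.8 CPM, the others 21.6 to 28.7) and Spcs1 (108 CPM, the others 46.9 to 62.3) and low for Canx (345 CPM, the others 450 to 486). p52Ki replicate 1 was low for Sec62 (26.6 CPM, the others 55.0 to 58.7) and high for Atf6 (113 CPM, the others 69.5 to 77.8). p52Ki replicate 2 was low for Hspa1a (1.94 CPM, the others 16.4 to 20.2). In WT, replicate 1 was low for Syvn1 (240 CPM, the others 339 to 354). WT replicate 2 was low for Psat1 (106 CPM, the others 188 to 200.0) and alone in having any count of Ern1 (0.277 CPM, the others 0).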

How the results depend on the processing

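Of 768 refits of single members, 707 kept direction and side of the threshold, 19 lost a call, 3 gained one and 39, all of members that were not called, changed sign. Hsp90b1, Pdia4, Sec11c, Dnajb9 and Ern1 kept their calls in every alternative that tested them other than the replicate block. Fkbp11 lost its call with limma-voom (adjusted p = 0.0761) and without the count filter (0.0907). Members called higher numbered 5 to 7 with 1 library left out, 6 with 10 CPM, the GC correction, limma-voom or no filter, 7 with limma-trend and 9 with DESeq2, and 0 were lower in any. With the replicate block 1 was called, Hsp90b1 (0.0461). No label pairs same-numbered libraries. Their deviations had r from -0.127 to -0.0389 over 5000 genes, within the -0.149 to 0.135 of differently numbered pairs. These correlations cannot show whether same-numbered libraries were handled together, so the block is given as an alternative.

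Over all genes 1096 were called (52.6% higher), 1766 with DESeq2, 129 with the block and 625 to 1108 with 1 library left out. The GC and length correction called 461 higher and 1037 lower (30.8% higher) and moved the median of all genes to -0.15. Without the count filter that median was 0.18. Further ER genes called higher were 0, but 1 with DESeq2 size factors and 2 with 10 CPM, DESeq2 or limma-trend. Those called lower were 3, but 6 with DESeq2 or the GC correction and 0 with the block. ATF4 targets called lower were 3, but 5 with DESeq2 or the GC correction, 0 with the block and 1 to 3 with 1 library left out, and cytosolic chaperones 4, but 7 with either, 2 with the block and 2 to 4 with 1 library left out. The cause was not tested.

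Sign changes, as log2 fold changes: Ssr1 was 0.0159 with DESeq2 size factors, 0.0160 with DESeq2, 0.0245 with the replicate block, 0.0064 unfiltered, 0.0263 at 10 CPM, 0.0023 without immunoglobulin genes and 0.0045 with voom. Edem2 was 0.0138 with DESeq2 size factors, 0.0137 with DESeq2, 0.0113 unfiltered, 0.0051 with voom, 0.0222 at 10 CPM and 0.14 with the block. The GC correction gave Hspa5 -0.0426, Canx -0.0485 and Sel1l -0.18, and the block gave Syvn1 0.0086. With 1 library left out, Sec63 ran from -0.33 to 0.0492, Ssr1 -0.0743 to 0.0821, Ssr2 -0.0201 to 0.38, Spcs2 -0.21 to 0.0845, Hspa5 -0.0459 to 0.14, Dnajb11 -0.17 to 0.0510, Pdia6 -0.0622 to 0.23, Edem2 -0.17 to 0.24, Sel1l -0.0425 to 0.25 and Syvn1 -0.18 to 0.0140.

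Limits: counts lack molecular identifiers, and Ern1 and Fkbp11 rest on 2 and 4 counts in WT. The p52Ki libraries were shallower yet held more genes with a count. The part of this in the values of Ern1 and Fkbp11 was not tested.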
